A study of Mus musculus with 4 samples.

Results

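Bone marrow-derived macrophages lacking O-GlcNAc transferase (OGT) were compared with wild-type (WT) macrophages after 24 h of interleukin 4 (IL-4). The genes described are the protein-coding genes at 5 FPKM or more in either 24 h library. FPKM is the number of sequenced fragments per kilobase of transcript, scaled to library size. There were 6107 such genes, of 21819 protein-coding genes and 52550 genes in the deposited table. Of the 6107 genes, 5582 reached 5 FPKM in both libraries, 212 in the knockout library alone and 313 in the WT library alone.

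The series holds 4 libraries in 4 groups, WT and OGT knockout, each at 0 h and at 24 h. All cells were mouse bone marrow cells that had M-CSF, a macrophage growth factor, at 20 ng/mL over 7 days, and the 24 h cells then received 20 ng/mL of IL-4. The treatment tag is the same on all 4 samples, so that the 0 h cells were taken as unstimulated because of their time label alone. No source used here gives the deleted segment of Ogt, the Cre line or other means of deletion, the strain, the age or the number of mice. Each group is 1 library, so no difference below can be set against the spread between cultures, no test was run, and every count describes these libraries. The 0 h pair, which shares no library with the 24 h pair, is given beside the 24 h values.

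OGT transfers N-acetylglucosamine from UDP-GlcNAc, the end product of the hexosamine pathway, to serine and threonine residues of nuclear and cytoplasmic proteins. O-GlcNAcase, encoded by Oga and listed here as Mgea5, removes it. IL-4 acts on macrophages through the IL-4 receptor and STAT6 and induces a programme whose usual markers are Arg1, Retnla, Chil3 and Mrc1. The series title names this state M2 polarization.

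The 24 h libraries were alike in most measures of quality that the values allow. Total FPKM was 352793 in WT and 353093 in the knockout, mitochondrial transcripts made up 9.01% and 8.99%, and genes at 1 FPKM or more numbered 10978 and 10920. By an estimate from the smallest steps of the values, a 2 kb transcript at 5 FPKM has about 212 fragments in WT and 202 in the knockout, a counting SD of 6.87% and 7.03%. This covers counting error only, and no raw counts were used. CT010467.1, annotated as ribosomal RNA, was at 68.5 FPKM in WT and 176.6 in the knockout, and its part in the differences was not tested. Macrophage markers were high in both libraries, with Cd68 at 965.5 FPKM in each, Adgre1 at 361.1 FPKM in WT and 378.2 in the knockout, and Csf1r at 610.0 and 726.3.

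Differences are given as log2 of the ratio of FPKM + 1, knockout over WT, so a positive value is higher in the knockout. A gene past 2-fold has a difference of at least 1 either way, and a gene past 1.5-fold at least 0.58. At 24 h 43 genes (0.704%) were past 2-fold higher in the knockout and 31 (0.508%) were past 2-fold lower. Past 1.5-fold were 144 (2.36%) higher and 125 (2.05%) lower, so 1.21% of genes were past 2-fold and 4.4% past 1.5-fold either way. The median gene lay at −0.04, 42.5% of the genes were positive, and 95.6% lay within 1.5-fold. Of the higher genes 25 reached 5 FPKM in the knockout alone, and of the lower genes 13 in WT alone, so their choice favoured a difference. The remaining 18 and 18 were at 5 FPKM in both libraries. The sizes of gene lists below count only genes among the 6107. Counts past 1.5-fold in these lists stand beside shares of 2.36% higher and 2.05% lower over all genes. A list gene that reached 5 FPKM in 1 library alone could only be higher in that library. The scatter of the 2 libraries shows most genes on the diagonal. Just inside the limits lay Grb2 (1.00) and Hpgd (1.00) on the higher side and Ly6e (−1.01) and Tor2a (−1.04) on the lower. Just outside lay Vwf (0.98), Fn1 (0.96), Siglec1 (−0.997) and Ogt (−0.99). At the expression limit, Hccs and Smim8 were just above 5 FPKM in their higher library and Tmx4 and Kdelc2 just under it.

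**Figure D1:**
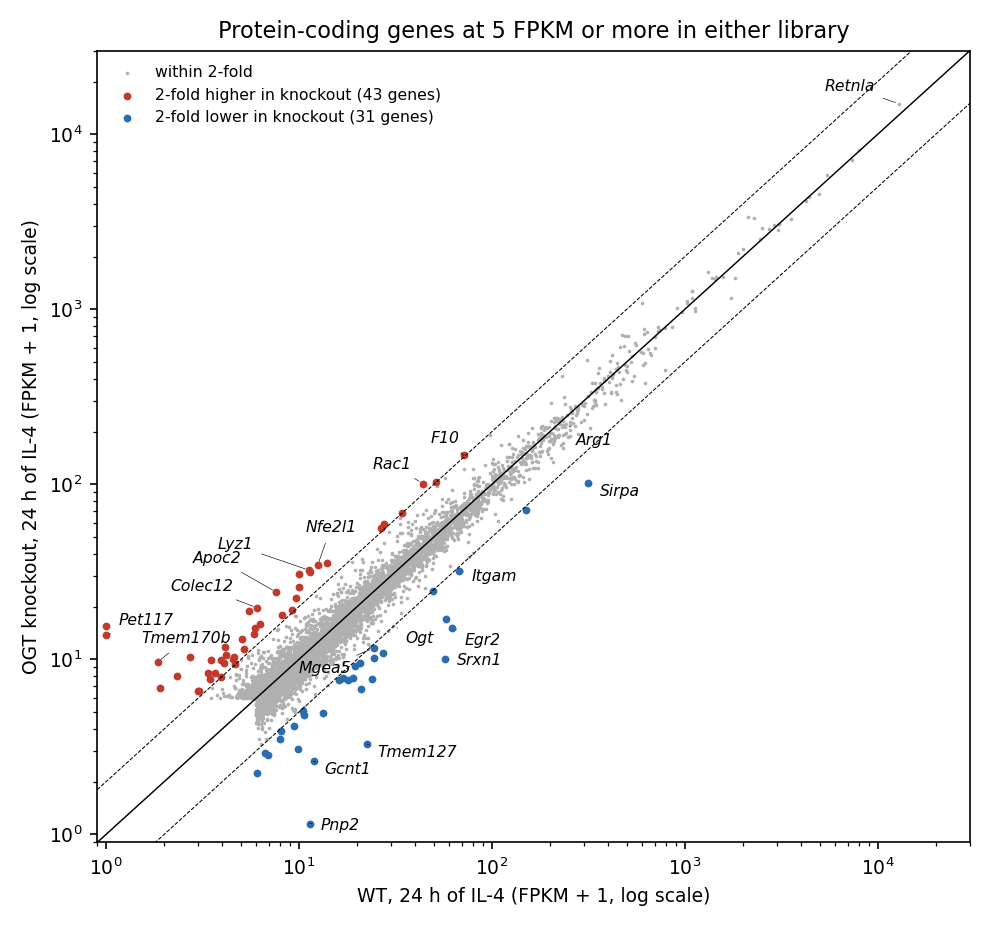
FPKM + 1 of 6107 protein-coding genes in the WT library (horizontal axis) and the OGT knockout library (vertical axis) after 24 h of IL-4, both on log scales. The solid line marks equal values and the dashed lines 2-fold, with 43 genes in red above and 31 in blue below.

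The 0 h pair had as many differences of this size in the same genes, 28 (0.458%) past 2-fold higher and 41 (0.671%) lower, 1.13% in all. Past 1.5-fold were 118 (1.93%) higher and 149 (2.44%) lower, 4.37% in all. They were for the most part other genes. Of the 43 genes higher at 24 h, 7 were past 2-fold the same way at 0 h, 4 were past 2-fold the opposite way and 22 lay within 1.5-fold. Of the 31 lower genes, 6 were past 2-fold the same way at 0 h, 2 the opposite way and 19 lay within 1.5-fold. Across all 6107 genes the differences at the 2 times had a Pearson correlation of 0.38, a description across genes, which are not independent replicates.

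The targeted gene and its partner enzyme were lower in the knockout at both times. Ogt (chromosome X:101640060-101684351, GRCm38) was at 29.8 FPKM in WT and 14.5 in the knockout after 24 h, and at 27.4 and 14.2 at 0 h. The knockout thus kept 48.5% of the WT level at 24 h, and the table has no values per exon to show whether the remaining transcript contains the deleted part. Mgea5, the O-GlcNAcase, was at 23.4 FPKM in WT and 10.6 in the knockout after 24 h, and at 31.4 and 14.9 at 0 h. Both enzymes were therefore low in both knockout libraries, with differences of −0.99 for Ogt and −1.08 for Mgea5 at 24 h.

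The rest of the hexosamine pathway was less changed. Of 10 members of the list of O-GlcNAc and hexosamine genes, 8 were negative, and only Ogt, Mgea5 and Amdhd2 were past 1.5-fold. Amdhd2, the deacetylase that returns N-acetylglucosamine 6-phosphate to the glucosamine pool, was higher, at 11.8 FPKM in WT and 21.3 in the knockout, with 18.1 and 20.3 at 0 h. It was thus the WT 24 h library that was low. Gnpda1, which converts glucosamine 6-phosphate back to fructose 6-phosphate, lay at 42.0 FPKM in WT and 56.3 in the knockout. Among 19 chromatin regulators known to bind OGT or carry its mark, none was past 1.5-fold, and Hcfc1, the host cell factor that OGT cleaves, had the highest difference (0.50; 0.54 at 0 h).

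The IL-4 programme was present in both 24 h libraries, and its members differed in both directions. Arg1, arginase 1, was at 240.4 FPKM in WT and 219.5 in the knockout, and Retnla, a secreted resistin-like protein, at 12960.6 and 14904.2. Mrc1, the mannose receptor, was at 341.1 and 281.7, and Chil3, a chitinase-like lectin, at 1738.2 and 1164.2. Chil3 was lower in the knockout at 0 h too (333.8 and 182.1 FPKM). Over 31 IL-4 induced genes the median was −0.04, the same as for all genes, with 5 members past 1.5-fold higher and 2 lower.

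The lower members of that list were Egr2 and Tgm2. Egr2, a zinc finger transcription factor induced by IL-4 in macrophages, was at 61.1 FPKM in WT and 14.1 in the knockout after 24 h, and at 9.69 and 3.83 at 0 h. The knockout was low at both times, and the 24 h difference (−2.04) was among the 5 most negative of all genes. Tgm2, transglutaminase 2, was at 79.0 and 39.5 FPKM at 24 h and at 24.4 and 26.3 at 0 h, so only the 24 h libraries were apart. The higher members included Fn1, fibronectin (96.9 and 189.4 FPKM at 24 h), and Ccl22, a chemokine for CCR4 (6.67 and 13.7). Dcstamp, a membrane protein needed for macrophage fusion, was at 37.6 and 58.3 FPKM. Each of these 3 was low at 0 h, when Dcstamp was at 2.07 and 1.17. The other higher members were Cd83 (40.0 and 65.8 FPKM at 24 h, 39.2 and 69.2 at 0 h) and Plxdc1. Plxdc1 was at 3.02 and 5.40 at 24 h and at 3.88 and 5.85 at 0 h. Both had much the same levels at 0 h and were higher in the knockout then too. Plxdc1 reached 5 FPKM at 24 h only in the knockout, so its 24 h direction was set by the expression limit.

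The receptor pathway upstream showed no member past 1.5-fold among 17. Il4ra, the receptor chain, was at 15.6 FPKM in WT and 16.5 in the knockout, Stat6 at 50.2 and 52.3, and Irf4, a transcription factor downstream of STAT6, at 46.0 and 58.4. Of 6 SOCS and CISH feedback inhibitors, 5 were negative, among them Socs1 (18.7 and 14.7 FPKM) and Cish (11.5 and 8.93). The exception was Socs6, a SOCS protein known for binding growth factor receptors, at 9.0 FPKM in WT and 29.6 in the knockout after 24 h, with 10.1 and 6.05 at 0 h. Its difference was 1.61 at 24 h and −0.66 at 0 h.

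Other early response factors did not follow Egr2. Among 22 immediate early transcription factors and Nab corepressors, 11 were positive and 11 negative. Egr1 was at 5.75 FPKM in WT and 4.73 in the knockout, Klf2 at 6.30 and 12.1, and Fos, a subunit of AP-1, at 20.3 and 31.3. Nab2, a corepressor of EGR factors, was at 22.5 and 25.7. Of 6 MAP kinase phosphatases and Sprouty inhibitors, which restrain ERK signalling, 5 were negative. Dusp4 was at 20.5 and 12.2 FPKM and Dusp7 at 9.86 and 5.73, and both were also lower at 0 h (differences of −0.81 and −0.67).

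Redox genes included a pair past 2-fold lower at 24 h. Srxn1, sulfiredoxin, which repairs overoxidised peroxiredoxins, was at 55.9 FPKM in WT and 9.08 in the knockout after 24 h, and at 31.5 and 20.3 at 0 h. WT was thus highest and the knockout lowest at 24 h, with the 0 h libraries between them. Gstp1, a glutathione transferase, was at 19.6 and 8.56 FPKM at 24 h and at 18.5 and 7.21 at 0 h, low in both knockout libraries. Its near-identical relative Gstp2 was listed at 0 in all 4 libraries. Of the 31 NRF2 target and thiol defence genes, 23 were negative, only these 2 were past 1.5-fold, and the median was −0.08. At 0 h 6 of the 31 were past 1.5-fold lower and the median was −0.17.

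NRF2, a transcription factor that responds to oxidants, acts with small MAF proteins at elements that contain an AP-1 site followed by GC. The sequence before the Srxn1 start is shown because Srxn1 had the most negative difference of that list. It is read from RefSeq (GRCm38.p6), chr2:152105274-152105515, plus strand, 5′ to 3′, and ends where the annotated gene begins. Capitals mark the AP-1 letters TGANTCA on either strand, and the GC that follows the second match.
Srxn1: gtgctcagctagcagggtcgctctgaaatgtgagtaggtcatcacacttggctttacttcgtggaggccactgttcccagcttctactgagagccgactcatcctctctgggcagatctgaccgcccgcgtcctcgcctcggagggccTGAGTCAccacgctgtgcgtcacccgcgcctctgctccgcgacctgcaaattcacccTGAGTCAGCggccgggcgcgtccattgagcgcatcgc
The matches begin 102 and 45 bases before the RefSeq start. The AP-1 letters were in 6.75% of 32817 RefSeq promoters in the 250 bases before the start, and TGANTCAGC, which overlaps them, in 1.02%. Of the 26 listed redox genes with a promoter in the table, 5 had the AP-1 letters and 4 the longer form. Counted by gene in the same way, the shares of 4848 matched genes were 5.47% and 1.28%. These are matches of letters and were not measured as bound sites.

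Other targets of NRF2 lay closer to WT than Srxn1 at 24 h, and several were lower at 0 h. Hmox1, heme oxygenase 1, was at 202.7 FPKM in WT and 179.4 in the knockout, Txnrd1, thioredoxin reductase 1, at 33.7 and 27.3, and Gclm, a subunit of the enzyme that starts glutathione synthesis, at 6.53 and 6.47. Prdx1, a peroxiredoxin that sulfiredoxin repairs, was at 382.6 and 286.1. At 0 h the differences were −1.31 for Gclm, −0.74 for Prdx1, −0.62 for Txnrd1 and −0.44 for Hmox1. The factor itself, Nfe2l2, was at 73.4 and 67.8. Its relative Nfe2l1, the NRF1 factor of proteasome genes and itself a known OGT substrate, was the sole member past 1.5-fold among 11 NRF factors and their turnover genes. Nfe2l1 was at 11.5 FPKM in WT and 33.4 in the knockout after 24 h, and at 8.56 and 30.6 at 0 h, so the knockout was high at both times. Proteasome genes did not go with it, as 27 of 37 subunits and activators were negative with a median of −0.11. Psmb5, a catalytic subunit, was at 70.2 and 71.2 FPKM. Psmd10 was the sole proteasome gene past 1.5-fold, at 14.6 and 9.11.

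Of 16 apolipoprotein and LXR sterol efflux genes, 13 were positive against 42.5% of all genes, 4 were past 1.5-fold higher, none was past it lower, and the median was 0.23. At 0 h the median of the same genes was 0.05. Apoc2, the cofactor of lipoprotein lipase, was at 6.64 FPKM in WT and 23.2 in the knockout after 24 h, and at 31.3 and 127.6 at 0 h, higher in the knockout at both times. Pltp, the phospholipid transfer protein, was at 230.1 and 416.7 FPKM at 24 h and at 473.3 and 782.0 at 0 h, also higher at both.

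Apoe showed another pattern. This main apolipoprotein of macrophages was at 2124.9 FPKM in WT and 3380.8 in the knockout after 24 h, and at 4407.0 and 4175.6 at 0 h. The 3 other libraries were alike and the WT 24 h library was low. Smpdl3a, a secreted phosphodiesterase that LXR induces, was at 38.9 and 60.4 FPKM, and Npc2, the lysosomal cholesterol carrier, at 202.5 and 289.7. The sterol pumps Abca1 (53.9 and 60.1) and Abcg1 (122.2 and 141.9) had differences of 0.15 and 0.21.

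Some desaturases and fatty acid carriers were past 1.5-fold higher at low levels. Scd1, Fads2, Fads3, Fabp3 and Ldah reached 5 FPKM only in the knockout, so their direction was set by the expression limit. Scd1, a stearoyl-CoA desaturase, was at 2.38 FPKM in WT and 7.31 in the knockout after 24 h and under 1 FPKM at 0 h, while its relative Scd2 was at 55.7 and 53.6. Fads2, the delta-6 desaturase, was at 2.50 and 8.86 FPKM at 24 h and at 1.74 and 3.38 at 0 h. Fads3 was at 4.68 and 7.03, a difference of 0.50, which is under 1.5-fold on the FPKM + 1 scale. The list of 11 had a median of 0.08, and Fasn, fatty acid synthase, had a difference of −0.19. Fabp3, a fatty acid binding protein, was at 3.64 and 8.37 FPKM at 24 h and at 4.63 and 13.6 at 0 h. Ldah, a lipid droplet hydrolase, was at 2.66 and 7.34 at 24 h and at 2.37 and 6.61 at 0 h. Both were higher in the knockout at both times. Fabp3 overlaps Zcchc17 on the other strand. With Zcchc17 added the difference of Fabp3 was 0.64 at 24 h and 0.92 at 0 h, under 2-fold at both. Zcchc17 differed little (5.33 and 6.12 FPKM at 24 h), so its addition shrinks the difference in any case.

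Cd36, a fatty acid and oxidised lipoprotein receptor, went the other way, at 789.1 FPKM in WT and 446.8 in the knockout after 24 h and at 459.4 and 189.5 at 0 h. Cholesterol synthesis and uptake had no member past 1.5-fold among 20 and a median of −0.01. Hpgd, which inactivates prostaglandins, was at 2.96 and 6.95 FPKM at 24 h and at 25.1 and 41.2 at 0 h.

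MHC class II genes had the highest median of the family lists. All 9 measured members were positive at 24 h, with a median of 0.48 and 1 member past 1.5-fold, and all 9 were positive at 0 h with a median of 0.36. H2-Ab1, a beta chain, was at 469.9 FPKM in WT and 713.0 in the knockout after 24 h, and at 290.1 and 394.4 at 0 h. H2-Aa was at 507.2 and 706.0, H2-Eb1 at 487.6 and 702.5, and Cd74, the invariant chain, at 2279.4 and 3302.8. The differences were small and alike, 0.39 to 0.60 in the 8 members other than the protease Ctss (0.10). Ciita, the coactivator that drives these genes, was at 20.7 and 28.6 FPKM. By contrast, 14 of 18 MHC class I and immunoproteasome genes were negative, with a median of −0.10, against a median of 0.16 at 0 h.

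The proximal promoters of class II genes share a module that ends in a Y box, an inverted CCAAT element. They are shown for H2-Aa and H2-Eb1 (differences of 0.48 and 0.53). These were the only listed class II genes in the promoter table with the letters CTGATTGG, which are in capitals. The sequences are from RefSeq (GRCm38.p6), 5′ to 3′. H2-Aa is chr17:34287824-34288073 on the minus strand and H2-Eb1 chr17:34305617-34305866 on the plus strand, each 250 bases up to the start.
H2-Aa: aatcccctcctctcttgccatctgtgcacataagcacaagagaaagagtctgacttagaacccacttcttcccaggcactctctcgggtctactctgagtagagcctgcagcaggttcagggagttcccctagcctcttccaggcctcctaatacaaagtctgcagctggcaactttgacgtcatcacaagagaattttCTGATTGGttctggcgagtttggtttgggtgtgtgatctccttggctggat
H2-Eb1: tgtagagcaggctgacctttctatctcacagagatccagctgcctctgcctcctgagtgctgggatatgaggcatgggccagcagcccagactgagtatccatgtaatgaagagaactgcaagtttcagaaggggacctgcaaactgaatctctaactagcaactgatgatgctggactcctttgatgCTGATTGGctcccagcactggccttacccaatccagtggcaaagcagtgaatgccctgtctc
The match begins 51 bases before the start in H2-Aa and 62 bases before it in H2-Eb1. Of 6 listed class II genes in the promoter table, these 2 had the letters on either strand, as did 291 of 4848 matched genes (6%). Counted by promoter in place of gene, the letters were in 3.82% of all 32817 promoters. These letters are a description of the sequence.

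Interferon-stimulated genes were split at 24 h. Of 41 members, 20 were positive with a median of −0.01, and 3 were past 1.5-fold. These 3 were under 5 FPKM in WT, so that only a higher knockout value could admit them. At 0 h 39 of the same 41 were positive with a median of 0.35. Ifit3, an interferon-induced protein, was at 4.43 FPKM in WT and 9.12 in the knockout after 24 h, and at 180.2 and 309.2 at 0 h, values made uncertain by its copy Ifit3b. Xaf1 was at 3.41 and 6.92 FPKM and Mx1 at 3.60 and 6.06. Irf7, a factor that amplifies the response, lay the other way at 7.5 and 4.91. These 24 h levels were low in both genotypes. Trex1, the exonuclease that clears cytosolic DNA, was at 10.4 and 30.4 FPKM at 24 h and at 47.9 and 69.3 at 0 h.

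Sirpa, the inhibitory receptor for CD47, was at 312.5 FPKM in WT and 100.5 in the knockout after 24 h, and at 451.6 and 383.1 at 0 h. The knockout 24 h library was low and the 3 others lay within 1.5-fold. The next 3 genes of the inhibitory receptor list were lower, by less than 2-fold on the FPKM + 1 scale. Siglec1, a sialic acid receptor, was at 28.1 and 13.6 FPKM, Milr1 at 22.3 and 10.9, and Lair1, a collagen receptor, at 14.6 and 9.33. Their 0 h differences were −0.04, −0.03 and −0.14. Pira2, from the activating branch of its family, was at 6.82 and 11.9, and its near-identical copies make the value uncertain. Among the 19 genes of this list, not all of which are inhibitory, 4 were past 1.5-fold lower and 1 higher, with a median of −0.12.

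Scavenger and pattern receptors went both ways. Colec12, a scavenger receptor with a collagen-like stalk, was at 5.09 FPKM in WT and 18.7 in the knockout after 24 h, and at 10.3 and 29.6 at 0 h. It was higher in the knockout at both times. Cd5l, a secreted scavenger protein of macrophages, was at 51.1 and 96.4 FPKM at 24 h and at 115.1 and 171.2 at 0 h. Msr1, scavenger receptor A, was lower, at 33.0 and 21.8. Cd14, the co-receptor for lipopolysaccharide, was at 15 and 25.9, and Tlr7, a receptor for RNA, at 21.9 and 11.2 with 34.5 and 33.8 at 0 h. Of 13 C-type lectin receptors 11 were negative, with Clec4d (23.3 and 15.1 FPKM) the sole member past 1.5-fold.

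Fc gamma receptors and their signalling genes were mostly a little higher. Of 22, 17 were positive with a median of 0.10. Fcgrt, the neonatal Fc receptor, was at 32.6 FPKM in WT and 63.4 in the knockout after 24 h, and at 73.7 and 80.5 at 0 h, so the WT 24 h library was low. Fcgr1, the high-affinity receptor, was at 35.7 and 55.7 at 24 h and at 171.7 and 272.7 at 0 h. Vsir, the checkpoint protein VISTA, was at 32.4 and 58.4 FPKM, with 63.6 and 73.2 at 0 h.

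Of 15 chemoattractant and chemokine receptors, 3 were past 1.5-fold lower and 1 higher. Ccr1 was at 32.9 FPKM in WT and 17.5 in the knockout after 24 h and at 23.5 and 7.92 at 0 h. Ccr2, the receptor for monocyte chemoattractants, was at 16 and 9.36, and Ccr3 at 8.54 and 4.21. Ccr3 reached 5 FPKM only in WT, so its direction was set by the expression limit. The higher one was Cxcr4, at 14.8 and 22.7. Of 10 chemokine ligands 7 were positive with a median of 0.05, and Ccl22 was past 1.5-fold higher (0.94). Ccl6 (465.4 and 304.1 FPKM), Ccl7 (14.7 and 8.26) and Pf4 (40.5 and 25.4) were past 1.5-fold lower. Ppbp, a platelet chemokine outside that list, was at 6.97 and 2.50 at 24 h and at 14.9 and 4.47 at 0 h. The last pair also mark platelets and megakaryocytes, whose list is given below.

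**Figure D2:**
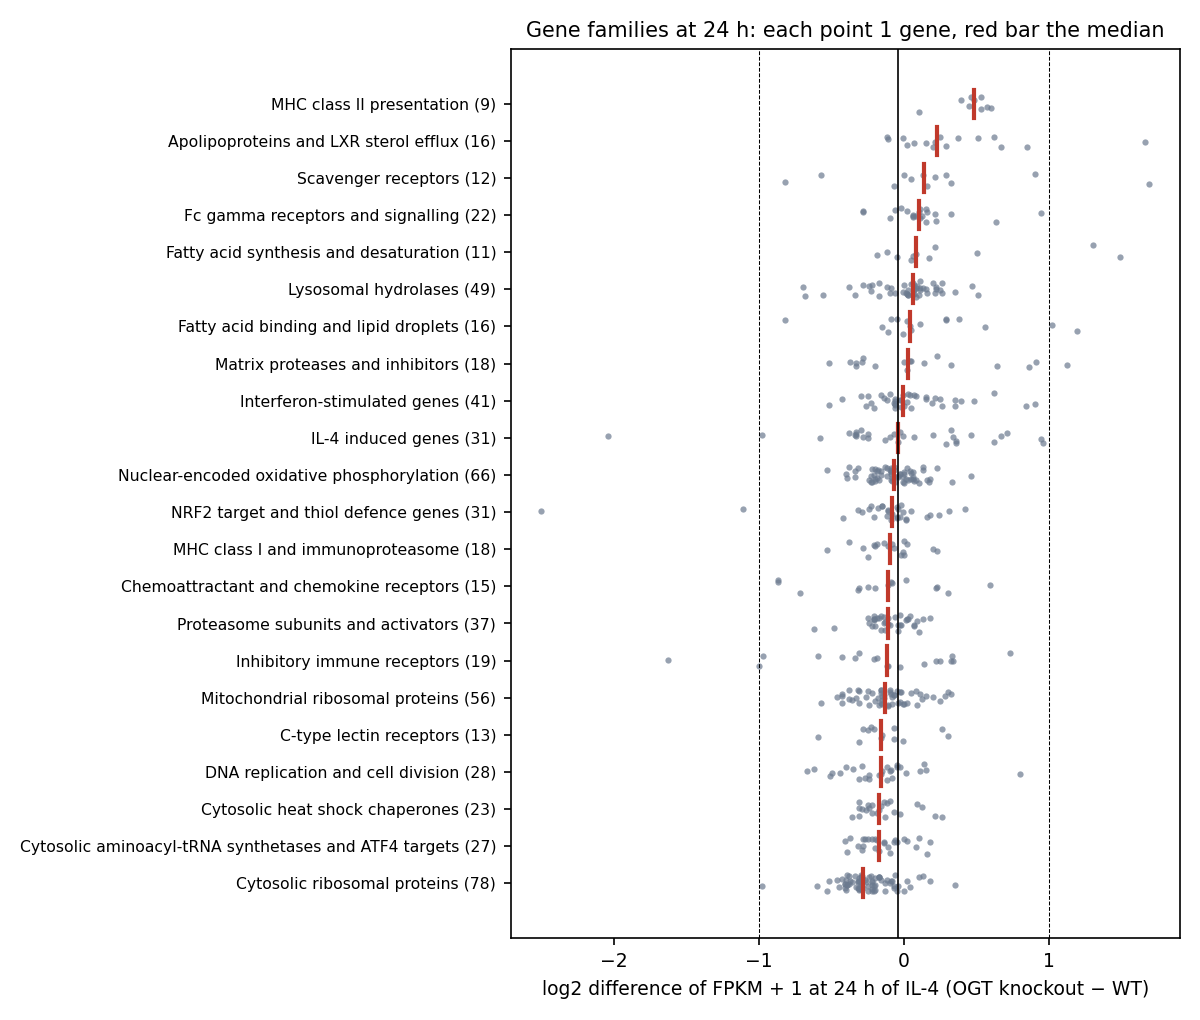
log2 difference of FPKM + 1 at 24 h (OGT knockout minus WT, horizontal axis) for the genes of 22 lists, with the number of measured genes in brackets and 1 point a gene. Red bars are list medians, the solid line is the median of all genes (−0.04) and the dashed lines are 2-fold; MHC class II is highest (0.48) and cytosolic ribosomal proteins lowest (−0.28).

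Matrix and protease genes included 4 past 1.5-fold higher and none past it lower among 18, against 2.36% and 2.05% of all genes. At 0 h 1 of the 18 was past 1.5-fold higher and 5 were past it lower. Adam17, the sheddase that releases TNF, was at 26.5 FPKM in WT and 58.6 in the knockout after 24 h, and at 48 and 63.8 at 0 h. With the opposite-strand gene Iah1, whose exons overlap it, added to both libraries the difference was 0.80. Iah1 was of like level in both (16.6 and 17.1 FPKM), so its addition shrinks the difference in any case. Mmp19, a matrix metalloproteinase, was at 56.4 and 107.0 FPKM at 24 h and at 19.3 and 19.0 at 0 h. Cst3, cystatin C, an inhibitor of cathepsins, was at 595.7 and 1080.7 at 24 h and at 632.1 and 1011.9 at 0 h. Plaur, the urokinase receptor, was at 31.3 and 49.5. F10, coagulation factor X, was at 70.4 and 145.6 FPKM at 24 h against 10.6 and 11.9 at 0 h, while F13a1, the factor XIII chain, was lower at both times (6.41 and 3.81; 16.1 and 6.49).

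Ribosomal protein genes had the lowest median of the family lists. Of 78 cytosolic ribosomal protein genes, 71 were negative against 57.5% of all genes, with a median of −0.28, and 2 were past 1.5-fold. At 0 h 60 were negative with a median of −0.13. Rps6 was at 278.9 FPKM in WT and 193.1 in the knockout, Rpl13 at 146.2 and 101.9, and Rpl11 at 124.0 and 81.5. Rpl29 was the lowest, at 74.7 and 37.3 at 24 h and at 95.5 and 33.7 at 0 h. Processed pseudogenes can share their fragments. Together these genes took 4.97% of the WT 24 h values and 4.18% of those of the knockout. Small shifts of the same sign ran through mitochondrial ribosomal proteins (44 of 56 negative, median −0.13), cytosolic heat shock chaperones (19 of 23, −0.17) and aminoacyl-tRNA synthetases with ATF4 targets (22 of 27, −0.17). Chaperones of the endoplasmic reticulum lay near all genes, with 17 of 31 negative and a median of −0.05.

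Cell cycle genes were low in both libraries and slightly lower in the knockout. Of 28 measured DNA replication and cell division genes, 23 were negative with a median of −0.16. Mki67, a proliferation marker, was at 10.0 FPKM in WT and 7.34 in the knockout, and Top2a at 8.20 and 5.76. Cdkn1b, a cyclin-dependent kinase inhibitor, was at 6.13 and 3.49, and Cdk2 was at 3.69 and 7.16. E2f3, an E2F transcription factor, was at 5.03 and 1.24 FPKM at 24 h and at 3.87 and 3.69 at 0 h. At 24 h Cdk2 reached 5 FPKM only in the knockout, and Cdkn1b and E2f3 only in WT. The expression limit thus set the direction of these genes.

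In energy metabolism few genes were past 1.5-fold. Of 24 glycolysis and pentose phosphate genes the sole member past it was Pfkfb3 (3.07 and 5.14 FPKM), whose enzyme makes an activator of phosphofructokinase. Pfkfb3 reached 5 FPKM only in the knockout, so its direction was set by the expression limit. None of 39 genes of the TCA cycle and fatty acid oxidation and none of 66 nuclear oxidative phosphorylation genes was past 1.5-fold, with medians of −0.03 and −0.07. Purine genes held Ada, adenosine deaminase, at 8.92 FPKM in WT and 2.08 in the knockout after 24 h and at 19.6 and 3.42 at 0 h, low in both knockout libraries. Entpd1, the ectonucleotidase CD39, was at 18.5 and 31.4. Gcnt1, which starts core 2 branches of O-glycans, was at 10.9 and 1.62 FPKM at 24 h and at 10.2 and 10.0 at 0 h, and was the sole member past 1.5-fold among 26 glycan branching genes.

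The signalling genes Grb2, Rac1 and Crk, singled out after their values were seen and not from a list, were past 2-fold higher at 24 h. Grb2, the adaptor that recruits SOS to receptors, was at 50.3 FPKM in WT and 101.6 in the knockout after 24 h, and at 56.1 and 56.4 at 0 h. Rac1, the small GTPase of membrane ruffles, was at 42.8 and 100.0 at 24 h and at 86.9 and 88.5 at 0 h. Crk, an SH2 and SH3 adaptor, was at 8.96 and 24.9 at 24 h and at 22.6 and 6.64 at 0 h. For Rac1 it was the WT 24 h library that was low, for Grb2 the knockout 24 h library that was high, and for Crk the sign was opposite at 0 h. Exons of Rac1 overlap those of Daglb on the other strand, and with Daglb added the difference of Rac1 was 0.65 in place of 1.21. Daglb was of like level in both 24 h libraries (62.3 and 65.7 FPKM), so its addition shrinks the difference in any case.

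Differences of the same sign past 2-fold at both times were found in 13 genes. The 7 higher genes were Colec12, Apoc2, Lyz1, Nfe2l1, Ldah, Pcp4l1 and Fabp3, and the 6 lower were Mgea5, Gstp1, Ppbp, Scamp4, Ada and Egr2. At 24 h Ldah, Pcp4l1 and Fabp3 reached 5 FPKM only in the knockout, and Ppbp, Scamp4 and Ada only in WT. The 24 h direction of these genes was therefore set by the expression limit. With its same-strand genes added, the difference of Scamp4 was −0.40 at 24 h and −0.70 at 0 h. Lyz1, a lysozyme, was at 10.3 FPKM in WT and 31.3 in the knockout after 24 h and at 32.6 and 74.3 at 0 h. Its near-identical copy Lyz2 was at 4246.2 and 4148.0 FPKM at 24 h, so fragments shared between the copies make the Lyz1 value uncertain. Pcp4l1 was at 3.54 and 9.05 FPKM at 24 h and at 11.2 and 31.6 at 0 h. The plot of these genes by library shows the same order of the genotypes at both times. For Colec12, Apoc2, Lyz1, Pcp4l1, Fabp3, Mgea5, Ppbp and Ada the 0 h library of each genotype was higher than its 24 h library. With a pseudocount of 5, 8 of the 13 (Ada, Fabp3, Gstp1, Ldah, Mgea5, Pcp4l1, Ppbp and Scamp4) were under 2-fold at 24 h.

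**Figure D3:**
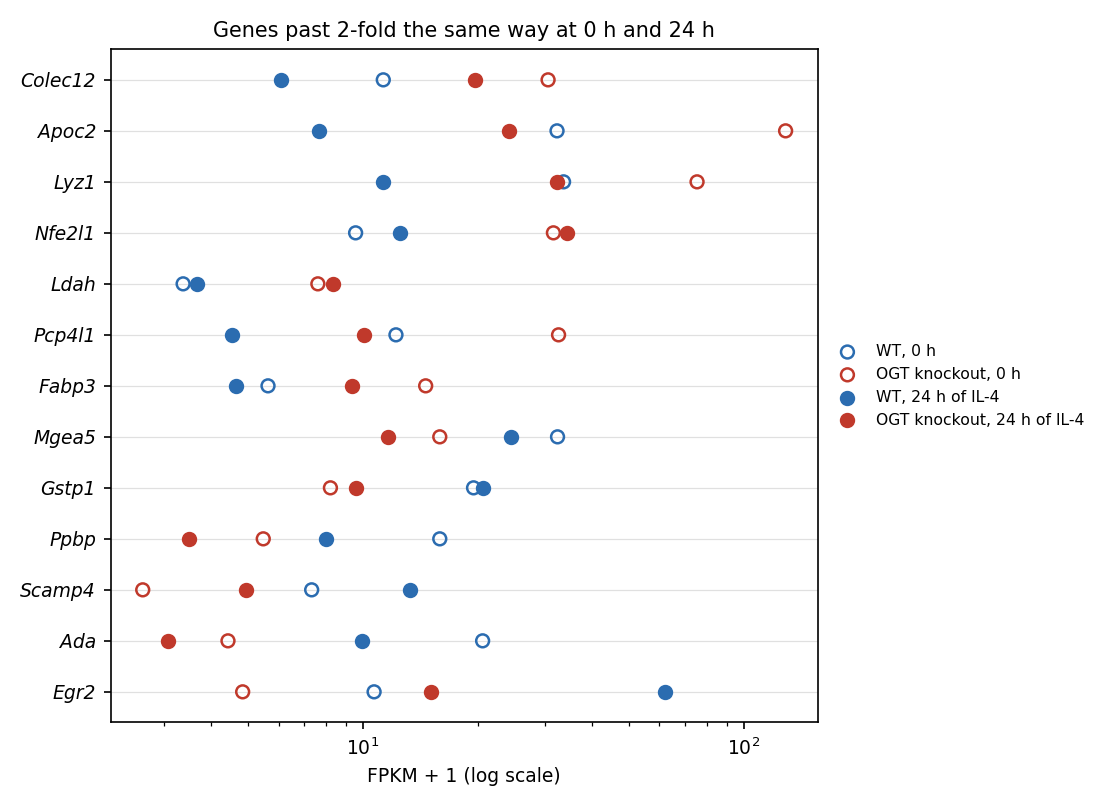
FPKM + 1 (log scale) in each of the 4 libraries for the 13 genes past 2-fold the same way at 0 h (open circles) and 24 h (filled circles). WT is blue and the OGT knockout red; the 7 upper genes have red to the right of blue at both times and the 6 lower genes to the left.

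In 29 of the 74 genes past 2-fold, 1 library lay apart from the 3 others, which were within 1.5-fold of each other. Because these genes were chosen for a gap between the 24 h libraries, only a 24 h library can lie apart. The share of such genes among all genes was not counted. Of the lower genes, 12 had the knockout 24 h library apart and 2 the WT 24 h library. Of the higher genes, 11 had the WT 24 h library apart and 4 the knockout 24 h library. Tmem127, a regulator of mTOR signalling at endosomes, was at 21.5 FPKM in WT and 2.28 in the knockout after 24 h, and at 25 and 25.2 at 0 h. Emp1, an epithelial membrane protein, was at 56.7 and 16.1 at 24 h and at 41.1 in both 0 h libraries. Ttyh3, a membrane protein, was at 22.9 and 6.70 at 24 h and at 28.4 and 28.5 at 0 h. In these genes, as in Sirpa, Gcnt1, Ccdc115 and E2f3, the knockout 24 h library was the low one.

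The WT 24 h library was the one apart in Tmem170b, at 0.860 FPKM in WT and 8.68 in the knockout after 24 h and at 8.85 and 8.06 at 0 h. Pet117, a factor for assembly of cytochrome c oxidase, was all but absent from the WT 24 h library (1.2e-05 FPKM) and at 12.7 in the knockout, with 13.4 and 9.83 at 0 h. Its exons overlap those of Kat14 on the same strand, which was at 9.43 and 9.79 FPKM. With Kat14 added the difference was 1.17 in place of 3.77, but adding a gene of like level in both libraries shrinks any difference. Slc10a3, a solute carrier, was at 5.27 and 15 at 24 h and at 12 and 10.6 at 0 h. With Ubl4a on the same strand added its difference was 0.90, and Ubl4a too was of like level (5.40 and 5.78).

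**Figure D4:**
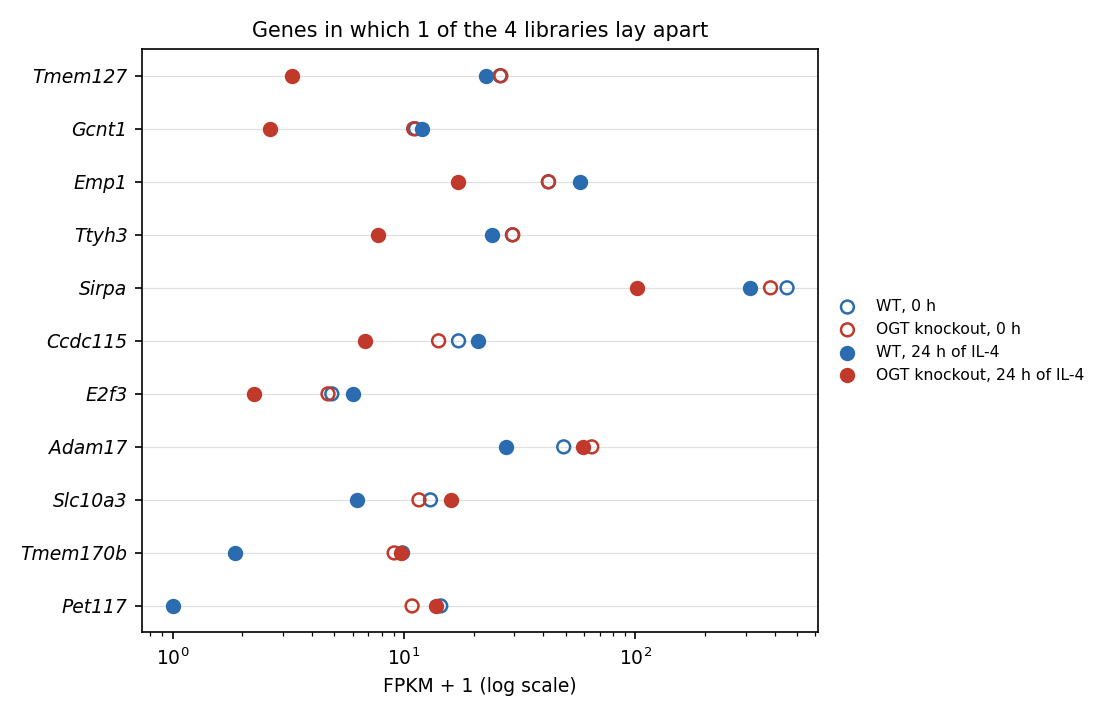
FPKM + 1 (log scale) in each of the 4 libraries for named genes past 2-fold at 24 h in which the 3 other libraries lay within 1.5-fold. Open circles are 0 h and filled circles 24 h, WT blue and OGT knockout red; the filled red circle is the one apart in the upper 7 genes and the filled blue circle in the lower 4.

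Several large differences were smaller after overlapping annotated genes were added. StringTie divides fragments among transcripts, and exons of 36.4% of the 6107 genes overlap those of another gene. Itgam, the CD11b integrin chain, was at 66.7 FPKM in WT and 31.1 in the knockout after 24 h, while Gm49368, a gene model that overlaps it on the same strand, was at 33.1 and 67.5. Their sum was 99.8 in WT and 98.6 in the knockout, a difference of −0.02. Pnp2, a purine nucleoside phosphorylase, was at 10.4 and 0.152 FPKM, the most negative difference (−3.31), while Gm49342 on the same strand was at 53.9 and 74, and the sums were 64.4 and 74.2 (0.20). Evi2 (4.53 and 17.9 FPKM) had a sum with Evi2a and Evi2b of 127.3 and 126.0. The difference also shrank for Scamp4 (−1.44 alone, −0.40 summed) and Map2k7 (1.33 alone, 0.37 summed). Gm49342 and Evi2b (99.8 and 87.7 FPKM) were at much higher levels than Pnp2 and Evi2. Adding a gene of much higher level moves the difference towards its own in any case. Whether fragments were divided between these genes was not tested.

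Overlap on either strand was found in 17 higher (39.5%) and 11 lower genes (35.5%), near the 36.4% of all genes. A same-strand overlap was found in 10 of the higher and 6 of the lower genes, and its share over all genes was not counted. With the same-strand genes added, 5 of these 10 and 2 of these 6 were still past 2-fold. Ccdc115 (−1.60), Apoc2 (1.66), Trex1 (1.44) and Golph3l (−1.23) were among those that hardly moved. Sirpa, Srxn1, Egr2, Ogt, Gstp1, Colec12, Nfe2l1, Tmem127 and Gcnt1 overlap no annotated gene.

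**Figure D5:**
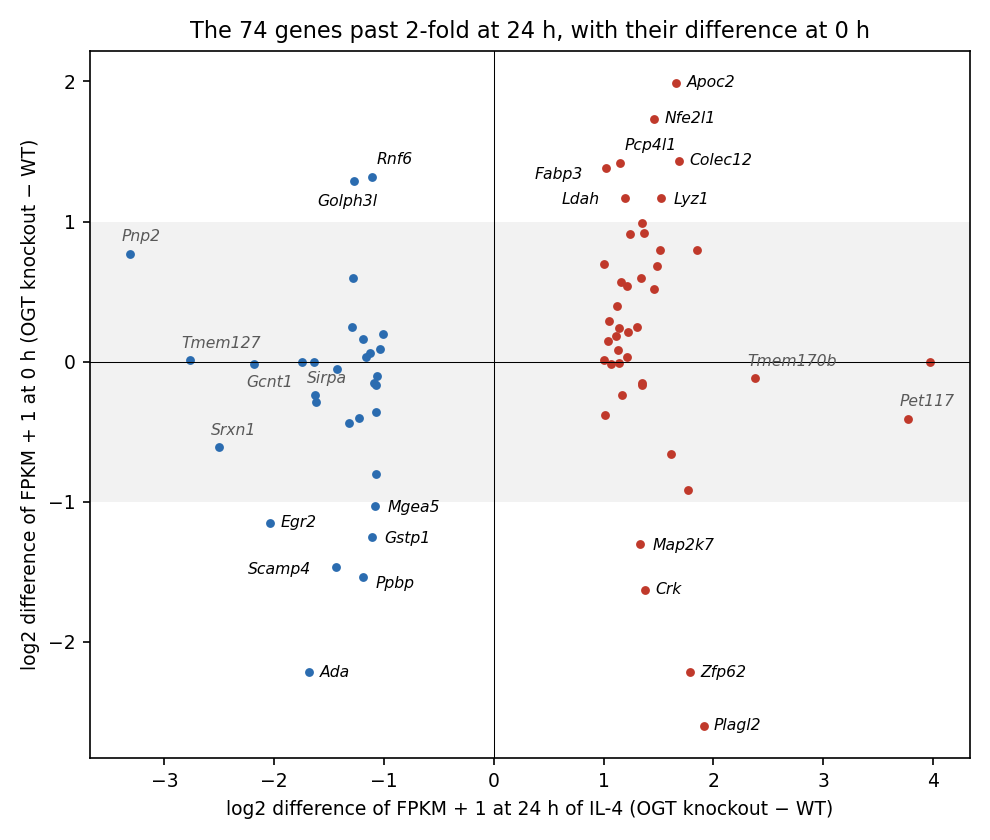
log2 difference of FPKM + 1 (OGT knockout minus WT) at 24 h (horizontal axis) and at 0 h (vertical axis) for the 43 higher (red) and 31 lower (blue) genes at 24 h, 1 point a gene. Genes outside the grey band are past 2-fold at both times, 13 with the same sign and 6 with opposite signs.

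Genes outside the lists and among the 15 largest differences each way included Txndc5, a protein disulfide isomerase, at 26.2 FPKM in WT and 9.90 in the knockout after 24 h and at 17.5 and 12.6 at 0 h. Fgfr1op2 was at 18 and 6.85 at 24 h and at 8.83 and 13.9 at 0 h. Rell1 (3.13 and 10.8 at 24 h) and Pianp (4.06 and 12.1) were higher in the knockout at 0 h too, at 13.8 and 24.9 for Rell1 and 10.4 and 20.5 for Pianp. The last 2 reached 5 FPKM only in the knockout at 24 h.

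The signs were opposite at the 2 times in 6 genes past 2-fold at both. Plagl2, a zinc finger transcription factor, was at 1.74 FPKM in WT and 9.32 in the knockout after 24 h and at 21.8 and 2.74 at 0 h. Zfp62 was at 1.32 and 7.02 at 24 h and at 9.13 and 1.17 at 0 h. For both genes the WT library was the higher at 0 h and the lower at 24 h. Both reached 5 FPKM at 24 h only in the knockout, so their 24 h direction was set by the expression limit. Golph3l, a Golgi protein, was lower at 24 h (23.4 and 9.15 FPKM) and higher at 0 h (10.5 and 27.0).

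Markers of other cells that bone marrow cultures can hold were summed in each library. The 13 macrophage markers summed to 10101.6 FPKM in WT and 10134.1 in the knockout after 24 h. The 14 neutrophil markers summed to 1109.2 and 743.2, with 11 of 14 lower in the knockout, and to 3436.1 and 2223.8 at 0 h. S100a9 was at 622.5 and 376.9 FPKM and Ltf, lactoferrin, at 20.8 and 12.7 at 24 h, while Ly6g, the defining surface marker, was at 0 in WT and 0.041 in the knockout. Platelet and megakaryocyte markers summed to 59.9 and 38, with 8 of 11 lower. Basophil and mast cell markers summed to 5.22 and 1.23, with Mcpt4 and Tpsb2 at 0 in both.

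The monocyte list summed to 2598.9 FPKM in WT and 2169.8 in the knockout, with 6 of 10 lower, and this list contains Chil3 and Ccr2. The eosinophil list summed to 223.6 and 179.6, with 7 of 9 lower, but Ear2 alone was at 205.7 and 168.2. At 0 h Ear2 was at 13.4 and 4.99. The dendritic cell list summed to 176.6 and 152.0, of which Bst2 was 130.1 and 105.7. The osteoclast list summed to 591.3 and 536.8, of which Atp6v0d2, also among the IL-4 induced genes, was 475.2 and 399.6. Most of each of these sums came from the gene named. The stromal list summed to 15.7 and 11.8. B lineage, T and NK, and erythroid lists summed to 17.5 FPKM or less in each 24 h library, with Klrb1c at 0 in both. The part of other cells in the lower values of Ppbp, Pf4, Lcn2, S100a8, S100a9, Ccr1, Ccr3, F13a1, Chil3 and the cell cycle genes was not tested. In bulk samples, fewer cells of a type and less RNA per cell cannot be told apart.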

How the data were processed

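RNA-seq of 4 libraries was used as 1 deposited table. The values are FPKM made by the authors; the table names no unit, and FPKM was read from the unequal column totals. STAR and StringTie with GRCm38 (mm10) are named in the submitters' processing notes, without versions; libraries were made with a SMARTer mRNA-Seq kit from 1 µg of total RNA, per the labels' protocols. Strandedness is not given in the sources used here. Symbols, types and positions came from GENCODE M21 (GRCm38), which named 52403 of 52550 genes.

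Python 3.11.15, numpy 2.4.6 and pandas 2.3.3 were used to compute log2 differences with a pseudocount of 1 FPKM, which understates differences of low genes. The method was tested on simulated data. Genes were described in 62 family lists and 12 marker lists by counts and medians. The members, lists and rules were chosen with earlier results of these data known. Genes named are the 9 markers of the series and of IL-4, the 15 largest differences each way without predicted genes, genes past 2-fold the same way at both times, and the 4 largest differences past 1.5-fold in each list. Other genes were chosen after their values were seen. Lists share genes, so they are not independent. Promoters came from RefSeq, in which 4848 of the 6107 genes were matched.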

Additional observations from a re-analysis of the deposited data

Results flagged for a closer look

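In 6 genes the difference between knockout and WT was past 2-fold at both times with opposite signs, which was not tested, since each group is 1 library. At 24 h the differences were 1.91 for Plagl2, 1.79 for Zfp62, 1.38 for Crk and 1.33 for Map2k7, all higher in the knockout, and −1.27 for Golph3l and −1.11 for Rnf6. At 0 h they were −2.60, −2.22, −1.63, −1.30, 1.29 and 1.32 in the same order. Plagl2, Zfp62 and Map2k7 reached 5 FPKM at 24 h only in the knockout, so their 24 h direction was set by the expression limit. Map2k7 shares exons with Gm49320 on the same strand, and with that gene added its 24 h difference was 0.37.

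Genes of other types than protein-coding, which the report does not use, held 12 genes past 2-fold higher and 7 lower in the knockout after 24 h among 599 at 5 FPKM or more. CT010467.1, annotated as ribosomal RNA, was at 68.5 FPKM in WT and 176.6 in the knockout after 24 h and at 81.3 and 78.1 at 0 h. AY036118 was at 211.0 and 556.2 at 24 h and at 232.7 and 209.2 at 0 h. For these genes the knockout 24 h library was high and the 3 others were alike. Rn7sk was at 3.91 and 9.37 at 24 h and at 13.6 and 14.4 at 0 h. Their part in the protein-coding differences was not tested. Gm47308 (54.2 and 0.00843 FPKM) and Gm27517 (0.17 and 31.4) differed in the same way at 0 h, when Gm47308 was at 52.6 and 0.243 and Gm27517 at 0.157 and 29.3.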

How the results depend on the processing

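The count of genes past 2-fold depended on the pseudocount and on the expression limit. No paired analysis was possible because each group holds 1 library, and for the same reason no replicate could be left out. With a pseudocount of 5, 15 genes were higher and 12 lower, all 27 among the 74, with 81 and 60 past 1.5-fold; 7 of the higher and 7 of the lower kept their sign at 0 h, and 13 had 1 library apart. It took 19 of 42 named genes under 2-fold (Ada, E2f3, F10, Fabp3, Fads2, Fgfr1op2, Gstp1, Hpgd, Itgam, Ldah, Mgea5, Pcp4l1, Pianp, Ppbp, Rell1, Scamp4, Scd1, Slc10a3 and Zfp62). Medians of up to 6 of 62 lists moved by 0.1 or more under an alternative, among them inhibitory receptors (from −0.12 to 0.03 with a limit of 1 FPKM) and SOCS genes (from −0.19 to −0.06). With a pseudocount of 0.1, 28 lower genes were negative at 0 h. A limit of 1 FPKM gave 192 genes past 1.5-fold lower, and no limit gave 228 higher and 202 lower. A limit of 10 FPKM gave 26 higher, 93 and 80 past 1.5-fold, and 16 of the higher positive at 0 h. With genes that overlap no other, 26 were higher and 20 lower, 81 were past 1.5-fold lower and 18 of the higher were positive at 0 h; fewer genes were compared under both. Chosen after seeing the data, the 5582 genes at 5 FPKM in both libraries gave 18 higher and 18 lower, 93 and 81 past 1.5-fold, 11 of the higher positive at 0 h and 15 with 1 library apart. Adding same-strand overlapping genes, also chosen after seeing the data, gave 40 higher and 28 lower, 65 of these 68 among the 74. Rescaling to a median ratio of 1 (44 higher, 29 lower) or to equal totals (42 and 31) changed no count by over 1.5 times.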

Other observations

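The solute carriers, lysosomal genes and cytoskeleton are not described above. Of 96 solute carrier genes 48 were positive, and 3 were past 1.5-fold, all higher. Slc27a3, an acyl-CoA synthetase, was at 4.71 FPKM in WT and 9.56 in the knockout after 24 h and under 0.04 FPKM in both 0 h libraries. Slc27a3 reached 5 FPKM only in the knockout, so its direction was set by the expression limit. Slc2a6, a glucose transporter family member, was at 5.18 and 9.03. Of 49 lysosomal hydrolase genes 33 were positive with a median of 0.06, while Ctsh, cathepsin H, was at 35.5 and 21.5 FPKM and Glb1, beta-galactosidase, at 32.8 and 20.2. Of 39 actin and cytoskeleton regulators the sole member past 1.5-fold was Ezr, ezrin, which ties actin to the membrane, at 15.1 and 24.3.

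In iron and heme handling, Alas1, which starts heme synthesis, was at 21.2 FPKM in WT and 12.2 in the knockout, and Ncoa4, the receptor for ferritin turnover, at 33.3 and 51.5. Among 13 Bcl2 family genes 2 were past 1.5-fold lower. Bcl2a1b, which has near-identical copies, was lower in the knockout at both times, at 106.0 and 60.8 FPKM at 24 h and at 93.7 and 48.9 at 0 h. Bid was at 7.70 and 3.59 at 24 h and at 3.75 and 10.0 at 0 h, and so differed in opposite directions.

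Further members of the family lists were past 1.5-fold. Higher in the knockout at 24 h were Hnrnpf, an RNA-binding splicing factor (35.6 and 60 FPKM), Herpud1, of protein quality control in the endoplasmic reticulum (10.7 and 17.1), and Eif5, a translation initiation factor (14.1 and 22.7). Nfkbie, an inhibitor of NF-kB, was at 5.54 and 9.23, Tnfrsf14, the receptor HVEM, at 14.7 and 22.8, Tmem37 at 22.8 and 34.8, and Zfp513 at 9.73 and 16.5. Lower were Spp1, osteopontin (322.2 and 208.5 FPKM at 24 h, 505.5 and 252.4 at 0 h), and Hmgb2, a chromatin protein (16.6 and 10.5). Zfp263 was at 13.1 and 6.10, Zfp715 at 5.74 and 2.49, and the histone gene Hist2h2aa1, which has near-identical copies, at 9.36 and 5.56.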
